A study of Mus musculus with 24 samples.

Results

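The comparison was between 3 libraries prepared from the anterior cingulate cortex (ACC) of female mice after spared nerve injury (SNI) and 3 from the ACC of female mice after a sham operation. These 6 libraries, chosen by their label for sex, region and treatment, are part of the 24 RNA-seq libraries of a study that sampled the ACC and the medial prefrontal cortex (mPFC) of both sexes. All mice were labelled as the C57BL/6 strain and as 3 months old. The study's methods give C57BL/6J and an age of 2 to 3 months. The labels name no other genotype or agent, and tissue was punched out 2 weeks after surgery. Each library is a pool of several animals, so the spread between libraries is a spread between pools and says nothing of single animals. The 3 libraries of each group are called sham 1 to 3 and SNI 1 to 3 here. The question was which transcripts of the female ACC differ in level between mice with a lasting nerve injury and operated controls.

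SNI is a surgical model of neuropathic pain in which branches of the sciatic nerve are cut and one is left intact, and it leaves the hindlimb hypersensitive to touch. The ACC is a midline part of the frontal cortex that takes part in the unpleasantness of pain and in mood. It holds glutamatergic projection neurons in layers, several classes of GABAergic interneurons, among them the fast-spiking cells that contain parvalbumin, and glia and vessels. Its inner faces are covered by the pia, a thin layer of meningeal fibroblasts that make collagens and proteoglycans, and this layer can come along in a tissue punch. The choroid plexus, an epithelium that secretes cerebrospinal fluid and makes transthyretin, is no part of the cortex and lies in the ventricles beneath it.

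The 6 libraries held 24714332 to 30391957 counts, and 1.93 to 2.05% of them came from mitochondrial genes. Tbr1, a transcription factor of cortical projection neurons, was at 183 ± 5.12 CPM after sham and 195 ± 8.59 CPM after SNI (CPM, counts scaled to a common library total with TMM factors, here and below; SD, n = 3). One library stood apart in its content of other tissue. Ttr, the gene of transthyretin, had 21811 counts in sham 1, 15 in sham 2 and 152 in sham 3, and between 8 and 17 counts in the SNI libraries. Summed over the 20 choroid plexus genes listed, the level was 1911 CPM in sham 1 and between 280.0 and 320.5 CPM in the other 5 libraries. The same held for Kl, the co-receptor klotho of this epithelium, at 60.8 CPM in sham 1 and 2.65 to 3.97 CPM elsewhere, and for Prlr, the prolactin receptor, at 26.4 CPM against 0.932 to 1.44 CPM. Enpp2, which encodes autotaxin, is also made by other brain cells, and it was at 706 CPM in sham 1 and at 190 to 218 CPM in the others. In those 5 libraries it made up most of the summed level. Of the 12 choroid plexus genes with enough counts to be tested, 12 had lower means in the SNI group (median log2 fold change −2.41), and without sham 1 that median was −0.295. None of the 12 passed the test across all genes in either fit. Values without sham 1 are therefore set beside the results that follow. They still include sham 3, with its 152 counts of Ttr, so they are not free of choroid plexus RNA.

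**Figure D1:**
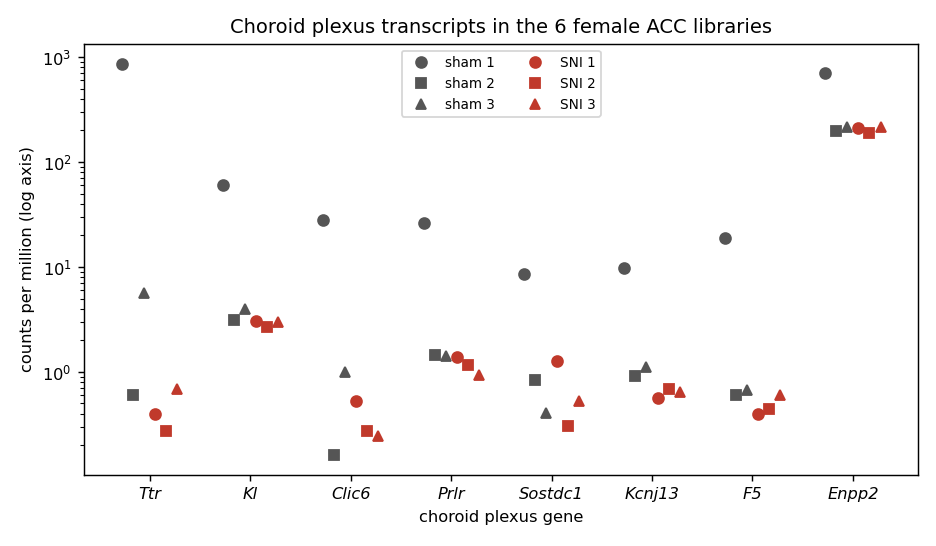
Levels of 8 choroid plexus genes in each of the 6 female ACC libraries, in CPM on a log axis, with sham libraries in grey and SNI libraries in red. The library sham 1 (grey circles) lies above the other 5 for each of the 8 genes, from 8.52 CPM for Sostdc1 to 868 CPM for Ttr.

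Over all genes, SNI and sham differed little. Of 16684 genes tested, 4 passed a false discovery rate of 0.1 (0.024%), the threshold for a differentially expressed gene (DEG) used throughout. Gm6565 rose, and Gm5641, Slc7a11 and Col3a1 fell. At an unadjusted p under 0.05 there were 518 genes higher after SNI (3.1%) and 595 lower (3.57%). The SNI libraries lay entirely above the sham libraries in 5.84% of the genes tested and entirely below them in 5.93%. The median log2 fold change of all genes tested was −0.00066, and 50.3% were below 0. Without sham 1, 16988 genes were tested and 3 were DEGs (0.0177%), with 432 genes higher and 432 lower at an unadjusted p under 0.05 (2.54% each). Those 3 were Gm6565, Gm5641 and Gm6361, which are all annotated as processed pseudogenes. Slc7a11 and Col3a1 lost their calls there, each with an adjusted p of 0.13. Sham 2 had the opposite influence, since without it the number of DEGs was 136, of which 64 were higher and 72 lower (0.8% of 17009 genes). Gm26723, a lincRNA that the study named, had 0, 15 and 346 counts in the sham libraries and 0 in each SNI library, so its level in the sham group rested on sham 3. It did not pass the low-count filter with all 6 libraries, and without sham 1 it did but was not a DEG (adjusted p = 0.243).

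The pseudogenes among the DEGs are copies of genes that are themselves expressed in the ACC. A processed pseudogene arises when an mRNA is copied back into the genome, so it lacks introns and can match its parent gene base for base. The annotated Gm6565 transcript (chr6:100604683-100605120, plus strand, build GRCm38, GENCODE M21) has 438 bases and is identical over its whole length to a stretch of the mRNA of Ube2v2 (chr16:15552077-15595773, minus strand), whose protein helps to build ubiquitin chains. Over 435 of those bases it is also identical to Gm6361, a pseudogene on another chromosome (chr15:31446383-31446817, minus strand). The Gm5641 transcript (chr3:54481438-54482925) matched the mRNA of Hnrnpa3 (chr2:75659261-75669407), an RNA-binding protein that takes part in mRNA processing, without a mismatch over the 1080 bases compared. For each match 150 bases are shown from its atg onward (from base 1 of the Gm6565 transcript and base 7 of that of Gm5641), because reads from this stretch could come from any of the genes named on the line.
Gm6565, Gm6361 and Ube2v2: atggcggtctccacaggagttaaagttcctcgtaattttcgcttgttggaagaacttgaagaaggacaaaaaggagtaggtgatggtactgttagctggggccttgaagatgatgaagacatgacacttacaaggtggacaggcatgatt
Gm5641, Hnrnpa3 and Gm6161: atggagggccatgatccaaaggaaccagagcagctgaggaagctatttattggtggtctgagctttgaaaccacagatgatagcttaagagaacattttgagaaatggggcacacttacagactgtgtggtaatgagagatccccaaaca
Gm6161 is a further pseudogene of Hnrnpa3. Within each line the genes do not differ at any of the 150 bases. How reads that match several places were assigned is not given in the sources used here, so the counts of these genes are uncertain as measures of each locus.

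The identical copies differed between the groups in opposite directions. Gm6565 had 0 counts in each of the 3 sham libraries, and 98, 58 and 52 counts in SNI 1, 2 and 3. Set against a floor of 3 counts per library it was at least 20.8-fold higher after SNI (adjusted p = 0.00196). Its twin Gm6361 had 97, 123 and 138 counts after sham and 77, 66 and 48 after SNI, for which the log2 fold change was −1.04 (SE 0.17, adjusted p = 0.153), or −1.15 (SE 0.16, adjusted p = 0.0537) without sham 1. Added together the pair of pseudogenes had 97, 123 and 138 counts after sham and 175, 124 and 100 after SNI, so the groups overlapped. Ube2v2 and both copies summed to 93.6 ± 6.25 CPM after sham and 91.4 ± 4.39 CPM after SNI (log2 fold change −0.03, SE 0.05, adjusted p = 0.943). Gm5641 had 335, 376 and 354 counts after sham and 227, 208 and 233 after SNI (log2 fold change −0.80, SE 0.11, adjusted p = 0.0599; without sham 1 −0.82, SE 0.12, adjusted p = 0.0537). Hnrnpa3 itself had 9014 to 9859 counts after sham and 8867 to 11423 after SNI, and its groups overlapped. Hnrnpa3 and its copies that matched at 98% or more of their bases summed to 383 ± 12.9 CPM and 378 ± 8.37 CPM (log2 fold change −0.02, SE 0.03, adjusted p = 0.955). When the counts of near-identical copies were summed before the test, a step added after the counts were seen, 0 genes were DEGs with or without sham 1. The smallest adjusted p was then 0.134 for Slc7a11 and Col3a1, and 0.26 without sham 1.

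**Figure D2:**
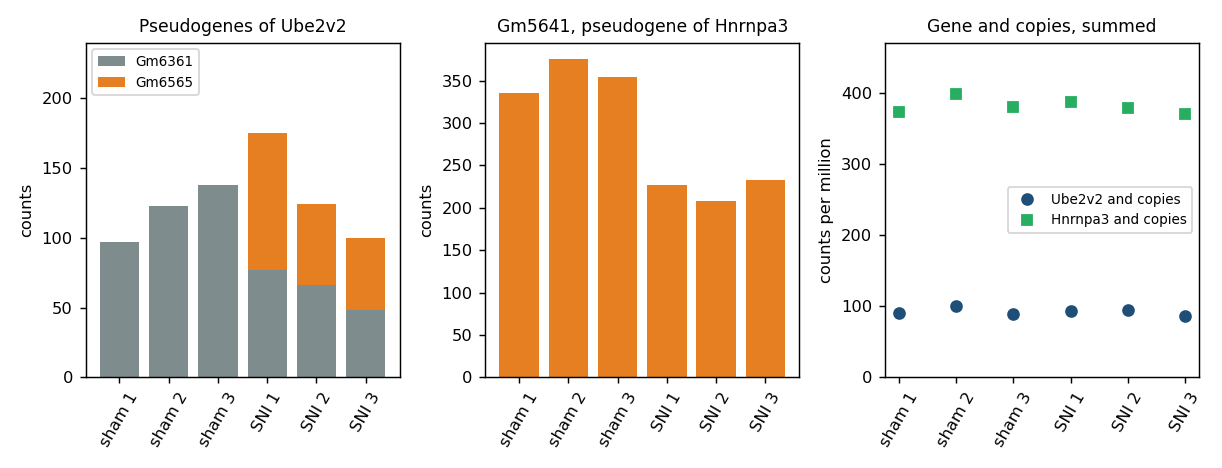
Counts of the pseudogenes Gm6361 and Gm6565 (stacked bars, left) and Gm5641 (middle) in each female ACC library, and the summed level of each parent gene with its copies in CPM (right). Gm6565 is at 0 in the 3 sham libraries and at 52 to 98 counts in the SNI libraries, and the sums on the right overlap between sham and SNI.

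Slc7a11 and Col3a1 were the protein-coding genes among the DEGs, and both fell after SNI. Slc7a11 (chr3:49892526-50443614) encodes the cystine-glutamate antiporter, which in the brain is found mainly in astrocytes and brings in the cystine needed for glutathione. It was at 84.5, 82.5 and 77.2 CPM after sham and at 57.5, 66.4 and 63.2 CPM after SNI. No SNI library reached the lowest sham library. The log2 fold change was −0.38 (SE 0.05, adjusted p = 0.0599), and it was −0.36 (SE 0.06, adjusted p = 0.13) without sham 1. Over the 6 fits that each left out 1 library, it ran from −0.43 to −0.33 and the adjusted p from 0.0408 to 0.322, under the threshold in 3 of them. Col3a1 (chr1:45311538-45349706) encodes the chain of type III collagen, a fibrillar collagen of soft tissue and vessel walls. Its levels were 8.80, 6.42 and 8.203 CPM after sham and 4.24, 4.15 and 3.32 CPM after SNI. The groups were again apart, and the log2 fold change was −0.99 (SE 0.14, adjusted p = 0.067). Without sham 1 it was −0.90 (SE 0.15, adjusted p = 0.13), and over the 6 such fits the adjusted p ran from 0.0131 to 0.322, under the threshold in 1. Among the other 24 tested genes of cystine uptake and amino acid stress, 0 were DEGs (0.024% of all genes were), and the median of the list was 0.01.

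Col3a1 was one of many transcripts of the meninges that were lower after SNI. All 20 tested genes of meningeal fibroblasts had a log2 fold change below 0, with a median of −0.45 against −0.00066 over all genes. Of the 20, 16 had an unadjusted p under 0.05 (3.57% of all genes were lower at that p) and 13 had sham and SNI libraries that did not overlap (5.93% of all genes), but only Col3a1 passed the test across all genes. Dcn, which encodes decorin, a proteoglycan that binds collagen fibrils, was at 12.2, 9.75 and 12.4 CPM after sham and 7.32, 6.56 and 8.55 CPM after SNI (log2 fold change −0.62, SE 0.12, adjusted p = 0.309). Serping1, the inhibitor of complement C1, was at 8.24, 7.06 and 8.09 CPM and then 5.16, 5.20 and 5.47 CPM (−0.56, SE 0.11, adjusted p = 0.303). Col1a1, the main chain of type I collagen, was at 26.6, 17.3 and 20.04 CPM and then 14.2, 15.9 and 12.8 CPM (−0.57, SE 0.13, adjusted p = 0.445), and without sham 1 its log2 fold change was −0.38. In all 3 genes the sham libraries lay above the SNI libraries, and sham 1 was the highest only for Serping1 and Col1a1.

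In the meningeal genes sham 1 and the other sham libraries differed from the SNI libraries in the same direction, but not by the same amount. Their summed level was 481.5 CPM in sham 1, 329.2 in sham 2 and 363.3 in sham 3, and 295.7, 295.7 and 294.9 CPM in the SNI libraries. Sham 1 was the highest, and sham 2 and 3 were still above every SNI library. Without sham 1 the 20 genes were again all lower, with a median of −0.24, and 12 had an unadjusted p under 0.05, where 2.54% of all genes were lower at that p. For Igf2, a growth factor of meninges and choroid plexus named here after its values were seen, the levels were 104.5 CPM in sham 1, 51.9 and 55.6 in sham 2 and 3, and 42.7, 43.1 and 43.0 after SNI. Its log2 fold change was −0.72 with sham 1 and −0.32 without it, with adjusted p-values of 0.568 and 0.128. In contrast Dcn kept nearly the whole of its difference without sham 1 (−0.57, SE 0.13, adjusted p = 0.44), as did Serping1 (−0.52, SE 0.12, adjusted p = 0.47), and over the 6 fits that left out 1 library their adjusted p-values ran from 0.0474 to 0.781 and from 0.0594 to 0.691. In bulk tissue, fewer fibroblasts in the punch and less RNA per fibroblast cannot be told apart.

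The lists of the wider extracellular matrix were also lower, with a larger part resting on sham 1. They share genes with the meningeal list, so they are not separate observations. Col1a1, Col1a2, Col3a1 and Col6a3 are among those shared with the collagens, and Dcn is shared with the proteoglycans. Of 39 collagen genes tested, 31 were lower after SNI and the list median was −0.21. At an unadjusted p under 0.05, 11 were lower (3.57% of all genes) and 1 was higher (3.1%). Without sham 1 the median was −0.09, and 8 were lower at that p (2.54% of all genes). Col6a3, a chain of the beaded type VI collagen, was at 3.86, 3.05 and 4.01 CPM after sham and 2.75, 2.11 and 2.11 CPM after SNI (log2 fold change −0.64, SE 0.18, adjusted p = 0.568, and −0.60 without sham 1). Col8a1, a short-chain collagen of basement membranes, shows the other extreme, at 10.9 CPM in sham 1 and 2.11 to 3.01 CPM in all 5 other libraries. Col4a1, a basement membrane collagen of the vessels, was at 44.6 to 49.0 CPM after sham and 45.7 to 46.2 CPM after SNI. Of 48 proteoglycans and other matrix proteins, 42 were lower, 18 at an unadjusted p under 0.05 (3.57% of all genes), with a median of −0.22. Without sham 1 these became 9 (2.54% of all genes) and the median −0.11. Nid1, the basement membrane linker nidogen, was at 12.04 ± 1.05 CPM after sham and 9.24 ± 0.694 CPM after SNI (−0.38, SE 0.09, adjusted p = 0.476, and −0.31 without sham 1). Slc13a4, a sulfate transporter of the choroid plexus and the meninges, differed without sham 1 too, at 12.6 and 14.4 CPM in sham 2 and 3 and 9.90, 9.62 and 9.24 CPM after SNI (−0.49, SE 0.09, adjusted p = 0.22).

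**Figure D3:**
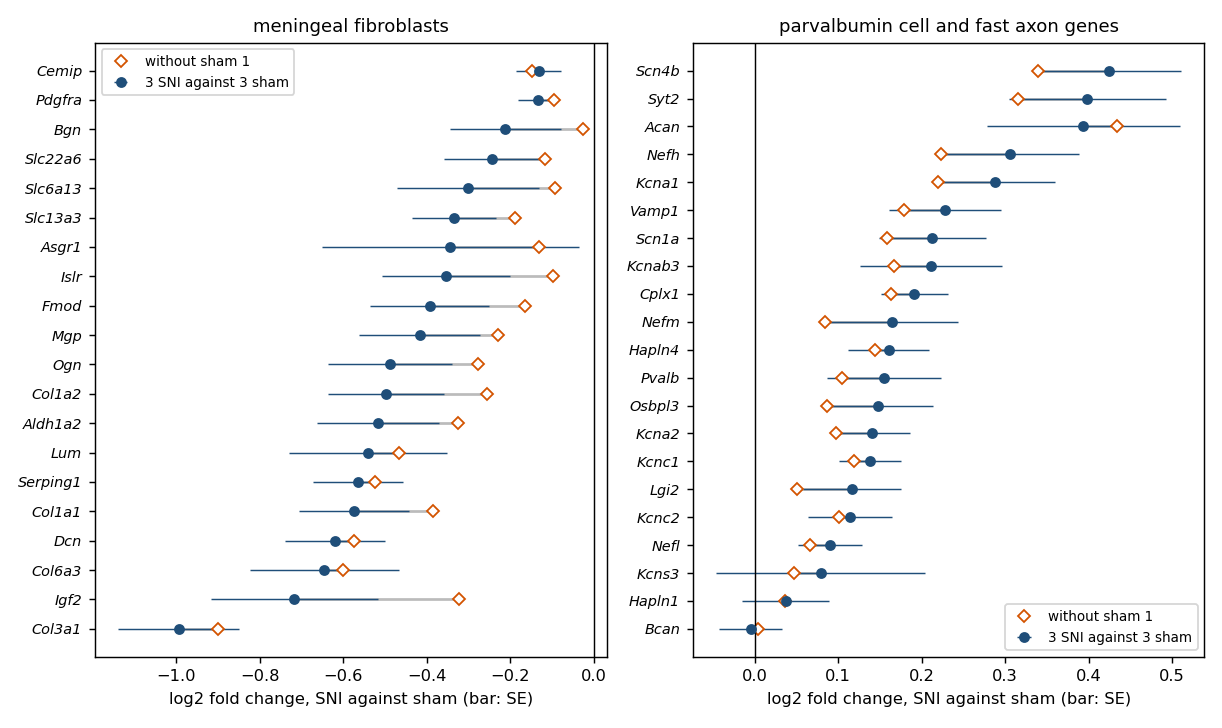
Log2 fold change (SNI against sham) of each tested gene of the meningeal fibroblast list (left) and of the list of parvalbumin cell and fast axon genes (right), with all 6 libraries (filled circles, bar 1 SE) and without sham 1 (open diamonds). All 20 genes on the left are below 0 in both fits, while on the right 20 of 21 are above 0 with sham 1 and 21 without it.

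Other genes with the smallest p-values among those that were lower belonged to several cell types, and none of them was a DEG. Ptgs2, the inducible cyclooxygenase COX-2 that excitatory neurons of the cortex also make, was between 23.2 and 24.03 CPM in the sham libraries and at 19.6, 17.3 and 18.97 CPM after SNI (log2 fold change −0.35, SE 0.06, adjusted p = 0.252). Its sham libraries were within 1 CPM of each other and above every SNI library, and without sham 1 the log2 fold change was −0.34. Zic1, a transcription factor found in the meninges and in some interneurons, was at 23.4, 18.9 and 25.6 CPM and then 16.1, 14.9 and 17.3 CPM (−0.50, SE 0.10, adjusted p = 0.309). Otof, which encodes the vesicle calcium sensor otoferlin, was at 24.6 ± 1.61 CPM after sham and 19.3 ± 1.29 CPM after SNI (−0.35, SE 0.07, adjusted p = 0.309). Colec12, a scavenger receptor, had 14.4 ± 1.78 CPM after sham and 10.8 ± 0.429 CPM after SNI (−0.42, SE 0.09, adjusted p = 0.369). Man1a, a mannosidase of the Golgi, and Synpr, the vesicle protein synaptoporin, had log2 fold changes of −0.18 (SE 0.04) and −0.23 (SE 0.05). C4b, a gene of complement component C4, was at 29.8 ± 2.84 CPM after sham and 21.4 ± 4.24 CPM after SNI (−0.48, SE 0.12, adjusted p = 0.476). Over the 24 chemokine and complement genes tested, though, the median was −0.08, and without sham 1 it was −0.04. With all libraries 3 were lower (3.57% of all genes) and 1 higher (3.1%) at an unadjusted p under 0.05. Zic1, Otof, Colec12 and C4b had log2 fold changes of −0.47, −0.30, −0.32 and −0.49 without sham 1, and Man1a and Synpr of −0.18 each.

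In the other direction, genes of fast-spiking cells and thick axons were higher after SNI, by small amounts. Of the 21 genes of parvalbumin cells and fast axons, 20 were higher, 16 of them at an unadjusted p under 0.05 (3.1% of all genes), and 10 had groups that did not overlap (5.84% of all genes). The list median was 0.16 on the log2 scale, and 0 of the 21 were DEGs (0.024% of all genes were). Scn4b, a sodium channel subunit that speeds repetitive firing, was at 63.8, 83.3 and 71.7 CPM after sham and 107.3, 97.7 and 88.3 CPM after SNI (log2 fold change 0.42, SE 0.09, adjusted p = 0.309). Syt2, the fast calcium sensor of parvalbumin cell terminals, was at 57.7, 74.7 and 64.4 CPM and then 98.5, 84.1 and 76.3 CPM (0.40, SE 0.09, adjusted p = 0.46). Kcna1, a potassium channel of the axon, was at 71.6, 91.0 and 75.7 CPM and then 100.3, 95.8 and 94.7 CPM (0.29, SE 0.07, adjusted p = 0.476). Scn4b, Syt2 and Kcna1 had log2 fold changes of 0.34, 0.32 and 0.22 without sham 1. In these genes sham 1 was the lowest library and SNI 1 the highest, and sham 2 came closest to the SNI libraries.

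That order of libraries ran through the list. Its summed level was 3261, 3652 and 3431 CPM in sham 1, 2 and 3, and 4078, 3803 and 3681 CPM in SNI 1, 2 and 3. Without sham 1 all 21 genes were higher, with a median of 0.12, and 11 had an unadjusted p under 0.05 (2.54% of all genes). Without sham 2 the median was 0.21 and 8 of the 21 were DEGs, Kcna1 with an adjusted p of 0.00951 and Scn4b with 0.0317 among them, where 0.376% of all genes were DEGs in that direction. Over the 6 fits that left out 1 library the adjusted p of these genes ran up to 0.988 and 0.865. Pvalb itself, the calcium buffer parvalbumin, was at 35.3 ± 2.41 CPM after sham and 39.3 ± 3.41 CPM after SNI (log2 fold change 0.15, SE 0.07, adjusted p = 0.732), and its groups did overlap. Nefh, the heavy neurofilament chain of large axons, was at 71.9, 90.8 and 82.6 CPM and then 113.0, 96.1 and 93.9 CPM (0.31, SE 0.08, adjusted p = 0.54). The perineuronal net genes of the list were uneven, with Hapln4 at a log2 fold change of 0.16 and Acan, which encodes aggrecan, at 0.39, but Bcan at 0.00 and Hapln1 at 0.04. As the library with choroid plexus RNA is also the lowest for this list, the differences without it were the smaller ones for 20 of the 21 genes, Acan being the exception.

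Other genes of synapses and channels were higher in part. Nptx1, a secreted pentraxin that gathers AMPA receptors, was at 410, 405 and 424 CPM after sham and 456, 467 and 485 CPM after SNI (log2 fold change 0.18, SE 0.03, adjusted p = 0.252). Without sham 1 its log2 fold change was again 0.18. Rapgef4, which encodes the cAMP sensor Epac2, was at 669 ± 21.5 CPM after sham and 754 ± 23.9 CPM after SNI (0.17, SE 0.03, adjusted p = 0.303). Stac2, a regulator of L-type calcium channels, was at 135 ± 6.74 and 161 ± 10.1 CPM (0.26, SE 0.05, adjusted p = 0.309). Inf2, a formin that shapes actin, was at 138 ± 7.48 and 162 ± 5.58 CPM (0.23, SE 0.05, adjusted p = 0.309). Cplx1, the complexin that clamps vesicle fusion and also a member of the fast axon list, was at 533, 587 and 546 CPM and then 664, 626 and 613 CPM (0.19, SE 0.04, adjusted p = 0.343). For its relative Cplx2 the value was 0.13 on the log2 scale (SE 0.03, adjusted p = 0.369). For these 6 genes the SNI libraries lay above the sham libraries. Rapgef4, Stac2 and Inf2 had log2 fold changes of 0.15, 0.22 and 0.19 without sham 1, and Cplx1 and Cplx2 of 0.16 and 0.12.

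The median changes of these families were small. Of 37 genes of the vesicle release machinery, 28 were higher with a median of 0.03. At an unadjusted p under 0.05, 10 were higher (3.1% of all genes) and 2 lower (3.57%). Without sham 1 these counts were 7 and 2 (2.54% of all genes in each direction). Of 59 potassium channel genes, 46 were higher with a median of 0.05. At that p 12 were higher (3.1% of all genes) and 1 lower (3.57%). The 12 became 6 without sham 1 (2.54% of all genes), with a median of 0.04. Of 28 sodium, calcium and HCN channel genes, 18 were higher with a median of 0.03. At that p 7 were higher (3.1% of all genes) and 1 lower (3.57%), or 5 and 1 without sham 1 (2.54% each). Hcn2, a channel of the hyperpolarization-activated current, was at 204, 205 and 214 CPM and then 242, 226 and 227 CPM (log2 fold change 0.16, SE 0.04, adjusted p = 0.476, and 0.15 without sham 1). Several genes overlap between these lists and that of the fast axons (Kcna1, Scn4b, Cplx1 and Vamp1 among them), so the lists are not separate observations. The 40 postsynaptic scaffold and glutamate receptor genes had a median of 0.01. Of these, 0 were higher (3.1% of all genes) and 1 was lower (3.57%) at an unadjusted p under 0.05. The 15 GABA receptor genes also had a median of 0.01.

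Syt6, a synaptotagmin that marks corticothalamic neurons of layer 6, was at 12.6, 16.1 and 13.5 CPM after sham and 18.6, 20.3 and 23.7 CPM after SNI. The groups did not overlap, and the log2 fold change was 0.57 (SE 0.10, adjusted p = 0.252), or 0.50 (SE 0.11) without sham 1. Of 15 layer 6 genes, 10 were higher with a median of 0.12, 6 at an unadjusted p under 0.05 (3.1% of all genes). Without sham 1 the median was 0.14 with 3 higher and 1 lower at that p (2.54% of all genes in each direction), and without sham 2 it was 0.05. Foxp2, Hs3st4 and Nxph4 were among the 6, and Rprm, which is expressed in the same neurons, was at 23.1, 23.0 and 26.5 CPM and then 26.1, 30.4 and 34.8 CPM (log2 fold change 0.33, SE 0.09, adjusted p = 0.6, and 0.29 without sham 1). In contrast Ntsr1, the neurotensin receptor of corticothalamic neurons, and Crym, the thyroid hormone binding protein, were at −0.13 and −0.12, with groups that overlapped. Pcp4, a calmodulin regulator of deep layer neurons, was at 86.3, 89.8 and 77.5 CPM after sham and 95.8, 104.6 and 101.9 CPM after SNI (log2 fold change 0.25, SE 0.06, adjusted p = 0.369, and 0.27 without sham 1). The layer 5 and upper layer lists had medians of 0.01 and −0.01. Wfs1, an endoplasmic reticulum protein of superficial cortical neurons, was among the lower genes, at 114 ± 12.5 CPM after sham and 93.1 ± 4.45 CPM after SNI (−0.29, SE 0.07, adjusted p = 0.445, and −0.27 without sham 1). The synaptotagmins as a family did not share a direction. Of 25 tested, 13 were higher and 12 lower with a median of 0.0060. At an unadjusted p under 0.05, 3 were higher (3.1% of all genes) and 2 lower (3.57%). Groups did not overlap for 5 that were higher (5.84% of all genes) and 2 that were lower (5.93%). Without sham 1, 15 were higher and 10 lower with a median of 0.02. Again 3 were higher and 2 lower at that p (2.54% of all genes in each direction). Syt17, one of the lower members, was at 50.5, 45.2 and 49.2 CPM after sham and 40.6, 42.5 and 43.9 CPM after SNI (log2 fold change −0.19, SE 0.05, adjusted p = 0.54), and without sham 1 it was at −0.16. Its groups did not overlap.

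**Figure D4:**
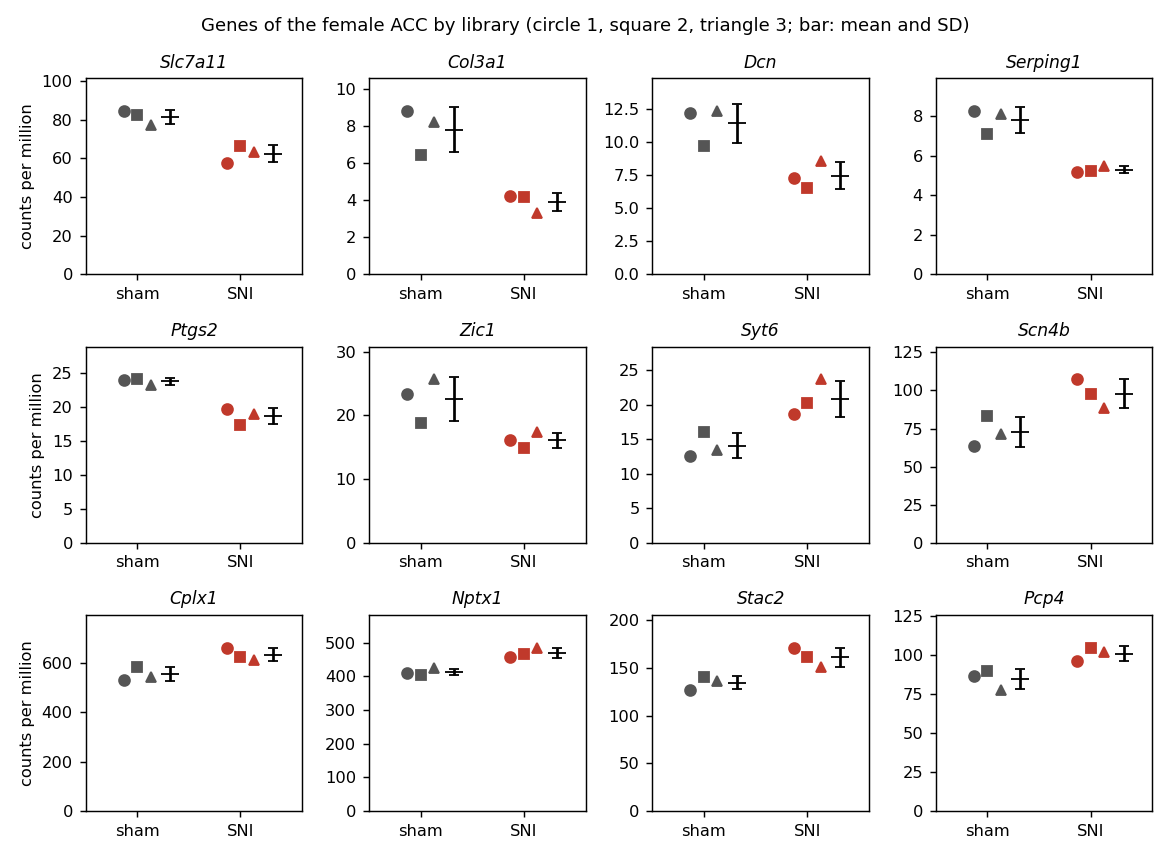
Levels of 12 genes in CPM in the 3 sham (grey) and 3 SNI (red) libraries of the female ACC, where circles, squares and triangles are libraries 1, 2 and 3 and the bar to the right of each group is its mean and SD. The 3 SNI libraries lie below the sham libraries in the first 6 genes and above them in the last 6, and Slc7a11 and Col3a1 are the DEGs among the 12.

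Markers of the other cell types of the punch gave no DEG, where 0.024% of all genes were DEGs. All 20 oligodendrocyte genes were higher after SNI, with a median of 0.17. However, 0 had groups that did not overlap (5.84% of all genes were apart and higher). An unadjusted p under 0.05 was found for 1 (3.1% of all genes were higher at that p). Their summed level was 3039, 3395 and 4661 CPM in sham 1, 2 and 3 and 4244, 3609 and 4750 CPM in SNI 1, 2 and 3, so that sham 3 was above 2 of the SNI libraries. Without sham 1 the median of the oligodendrocyte genes was 0.05. Of 14 mural cell genes, 11 were lower with a median of −0.12, or 8 with a median of −0.07 without sham 1. At an unadjusted p under 0.05, 4 were lower (3.57% of all genes) and 0 higher (3.1%). Without sham 1 these counts were 3 and 1 (2.54% of all genes in each direction). Acta2, the smooth muscle actin of arterioles, was at 23.8, 16.3 and 20.8 CPM and then 16.3, 13.7 and 14.4 CPM (log2 fold change −0.45, SE 0.12, adjusted p = 0.494, and −0.33 without sham 1), whereas the pericyte genes Rgs5 and Abcc9 were at 0.06 and 0.09. In the same mural list Tagln was at −0.59 (SE 0.15) and Des at −0.50 (SE 0.18), or −0.46 and −0.39 without sham 1. The groups overlapped for both. The 6 blood cell genes were all lower with a median of −0.22, or −0.09 without sham 1. Of these, 3 were lower at an unadjusted p under 0.05 (3.57% of all genes), or 2 without sham 1 (2.54%). The part of vessels, meninges or white matter in the punch in any of the differences above was not tested.

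Microglia, astrocytes and neuronal activity genes gave little difference. The 16 microglial genes had a median of −0.05. At an unadjusted p under 0.05, 0 were higher (3.1% of all genes) and 0 lower (3.57%). The 16 astrocyte genes had a median of −0.0013, although Gfap, the astrocyte filament, was at 131, 105.4 and 137 CPM after sham and 105.7, 84.8 and 113 CPM after SNI, with groups that overlapped (log2 fold change −0.30, SE 0.10, adjusted p = 0.635, and −0.26 without sham 1). Of 24 immediate early genes, which neurons switch on with activity, 18 were lower with a median of −0.07, or 20 with a median of −0.05 without sham 1. Egr2, a zinc finger factor of this class, was at 7.80, 7.10 and 7.05 CPM and then 4.87, 5.98 and 5.55 CPM (−0.42, SE 0.11, adjusted p = 0.54, and −0.37 without sham 1), and Ier5 lay the other way (0.17, SE 0.05, adjusted p = 0.54). Fos and Arc overlapped between groups. The medians of the spliceosome, mitochondrial assembly, opioid and monoamine, and glucocorticoid-responsive lists lay between −0.02 and 0.05.

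Whether the SNI effect in the female ACC differed from that in the male ACC or the female mPFC was tested as an interaction over 12 libraries each. The female ACC and mPFC libraries carry the same numbers in their labels, and the study's methods describe both regions as dissected from the sliced brains. The region fit took its 12 libraries as independent and did not match numbers across regions. Its p-values therefore take no account of animals that the regions may share. The sex by SNI interaction in the ACC called 0 of 17289 genes in edgeR (smallest adjusted p = 0.119, 1024 genes or 5.92% at an unadjusted p under 0.05, 2 calls by DESeq2), and the region by SNI interaction in females 0 of 17451 (smallest adjusted p = 0.428, 1932 genes or 11.1% at that p, 6 calls by DESeq2). Without sham 1 of the female ACC both again called 0 genes in edgeR. Single libraries of the other groups weighed on both counts. Without male sham ACC 3 the first called 1698 genes, and without female sham mPFC 3 the second called 2070. The values of the lists are therefore given side by side.

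The meningeal genes had a median log2 fold change of −0.45 in the female ACC, −0.19 in the male ACC and 0.25 in the female mPFC. In the interaction with region, 20 of the 20 genes had a lower fold change in the ACC than in the mPFC and 14 of these had an unadjusted p under 0.05, where 5.56% of all genes did in that direction. In the interaction with sex, 19 of 20 were lower in females and 3 had such a p (3.48% of all genes). Without sham 1 the region interaction again had 20 of 20 lower in the ACC, 11 at that p (4.87% of all genes), and the sex interaction had 15 lower in females, 1 at that p (2.03% of all genes). Col3a1 was at −0.99, −0.21 and 0.26 in the 3 comparisons, with unadjusted p-values of 0.0262 for the sex and 0.00118 for the region interaction in edgeR, or 0.0619 and 0.00321 without sham 1. The fast axon genes had medians of 0.16, −0.03 and −0.12. Their fold change was higher than in males for 20 of 21 genes, 6 at an unadjusted p under 0.05 (2.45% of all genes), and higher than in the mPFC for 19, 9 of them at that p (5.51% of all genes). Without sham 1 these counts were 20 and 4 (1.68% of all genes) against males and 19 and 8 (5.05% of all genes) against the mPFC. Slc7a11 was at −0.38, −0.16 and 0.22 (unadjusted p = 0.0567 for sex and 0.00174 for region, or 0.135 and 0.00423 without sham 1), and Gm6361 at −1.04, −1.05 and −1.93. Gm6565, the DEG that rose in the female ACC, was at −0.56 in the male ACC and 2.96 in the female mPFC. Its adjusted p-values in those comparisons were 0.877 and 0.401 in edgeR. Gm5641 was at 0.58 in the female mPFC and did not pass the low-count filter of the male ACC fit. It was tested in the sex interaction, where its log2 fold change was 6.68 (SE 1.80), so it was higher in females than in males. The unadjusted p there was 0.00219 in edgeR (adjusted p = 0.753), and without sham 1 the value was 6.67 (unadjusted p = 0.00407). The study lists Gm5641 as a DEG of the ACC in both sexes. Since Tmem267, an uncharacterized membrane protein gene, was at 0.42, 0.11 and 0.56, not every gene lay in opposite directions in the female ACC and mPFC. The oligodendrocyte genes had medians of 0.17, −0.08 and −0.55.

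**Figure D5:**
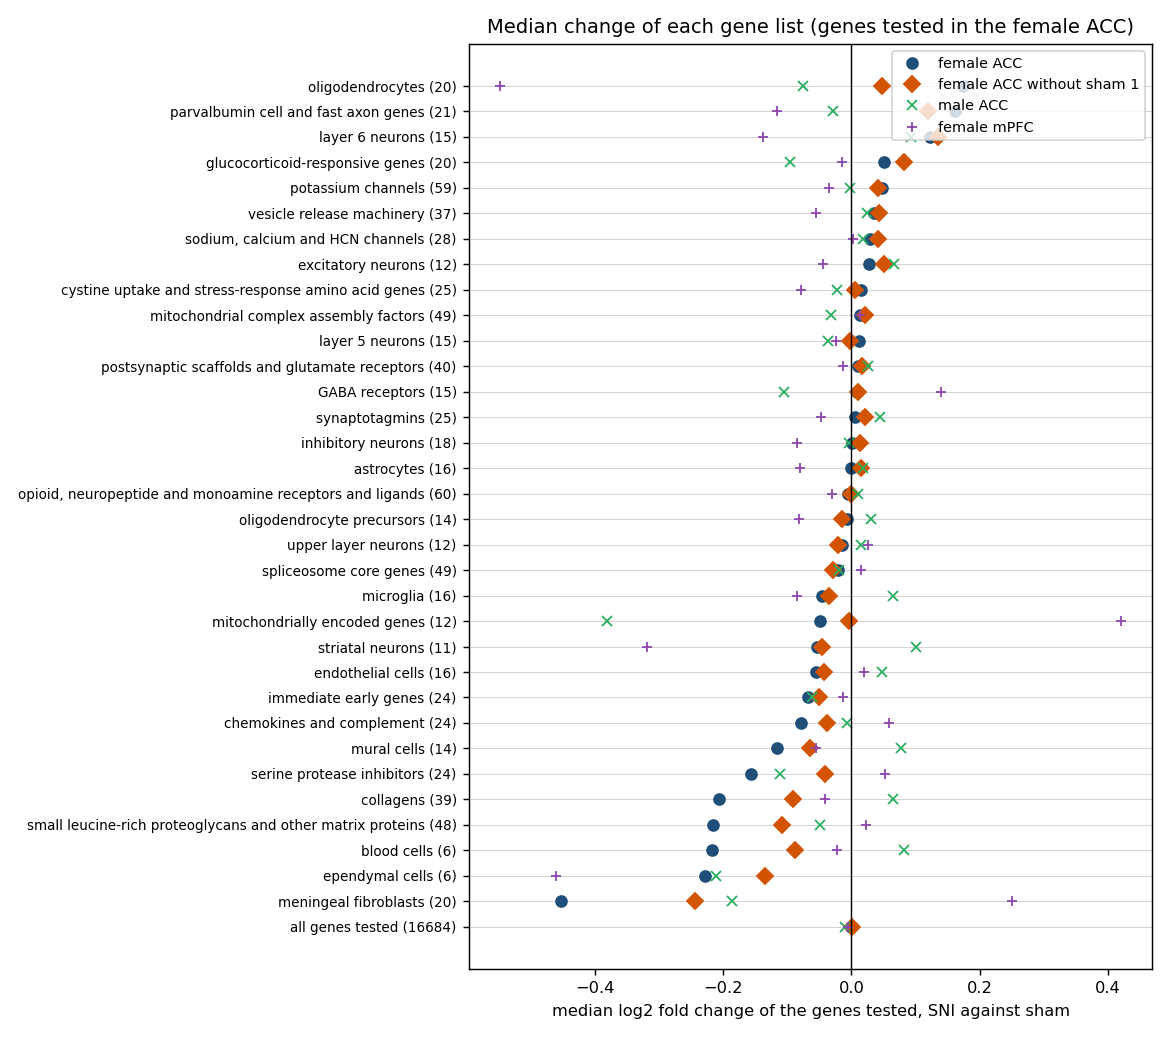
Median log2 fold change (SNI against sham) of the gene lists, leaving out those of the choroid plexus and sex markers, in the female ACC with all libraries (circles) and without sham 1 (diamonds), in the male ACC (x) and in the female mPFC (plus signs), with the number of genes tested in the female ACC in parentheses. Of the lists plotted, the meningeal list is lowest in the female ACC at −0.45, and the oligodendrocyte and fast axon lists are highest at 0.17 and 0.16, while the median of all genes is near 0 in each comparison.

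The values without sham 1 can be read over the 10 higher and 10 lower protein-coding genes with the smallest p-values and groups that did not overlap. Leaving out a library cannot make such groups overlap, so the sizes are given instead. The log2 fold changes without sham 1 were 0.752 to 1.07 times those with it, and were smaller in 19 of the 20 genes, Tmem267 being the exception. The 20 genes were chosen in the fit with sham 1, so smaller values without it can follow from the choice alone. How much of the decrease belongs to sham 1 was not tested. The median size went from 0.40 to 0.35 in the lower genes and from 0.25 to 0.20 in the higher ones. Over the 20 meningeal genes it went from 0.45 to 0.24, with Slc6a13, Pdgfra, Islr and Bgn under 0.10 without sham 1 and Col3a1, Dcn, Serping1 and Col6a3 above 0.50. None of the 20 protein-coding genes was a DEG without sham 1, and their adjusted p-values were 0.13 to 0.833. With 2 sham libraries left the DEGs were Gm6565 and Gm5641, which were called with all 6 libraries, and Gm6361, which was not (adjusted p = 0.153). All 3 are pseudogenes that match other transcripts base for base.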

How the data were processed

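RNA-seq counts of the ACC and mPFC of female and male mice were used as the authors deposited them, as whole read counts per gene. The submitters' processing notes name Trimmomatic 0.36, Bowtie2 2.33, HISAT2 2.1.0, HTSeq 0.9.1, edgeR 3.34.0 and the build GRCm38. Groups came from the sample labels. The columns of the tables give sex, treatment and number, and the region came from the table. All 33364 gene identifiers matched GENCODE M21, the source of symbols, biotypes, coordinates and transcript sequences.

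Genes were kept with filterByExpr (minimum count 10, minimum total 15), scaled with TMM and tested with edgeR 4.0.16 (R 4.3.3, limma 3.58.1) by the quasi-likelihood F-test, with Benjamini-Hochberg adjustment and an FDR threshold of 0.1. Interactions were fitted over 12 libraries, taken as independent, with no term for pools that the regions may share. Alternatives included DESeq2 1.42.0, other filters and scalings, and leaving out each library. Copies were transcripts matching a called pseudogene at 98% identity or more over 90% or more of its length. At these depths 3 counts correspond to 0.0987 to 0.121 CPM, which covers counting error only.

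Named genes were those called, the 10 higher and 10 lower protein-coding genes with the smallest p and groups apart, up to 4 members of each list with the smallest p, choroid plexus genes, genes at 0 to 3 counts in one group and 10 or more in the other, and genes named by the study. The lists, of which 1 symbol was unmatched, and the genes the study named were chosen with earlier results of these data known, so their counts are no independent evidence. Nothing says that pools of one group came from separate cohorts, and p-values measure the spread between these pools.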

Additional observations from a re-analysis of the deposited data

How the results depend on the processing

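The number of DEGs of the female ACC was 4. It was 37 with DESeq2, 398 without a low-count filter, 56 with the likelihood ratio test and 0 in one model over all 24 libraries or over the 12 ACC libraries. RLE size factors, the current quasi-likelihood method and GC content offsets gave 4 and a minimum of 10 counts in every library gave 3. Summing near-identical copies, chosen after seeing the data, gave 0 with and without sham 1. Leaving out 1 library gave 1 to 136 DEGs, the lowest without SNI 1 and the highest without sham 2. With the replicate number as a block there were 11. Deviations from the group mean in same-numbered sham and SNI libraries of the female ACC had correlations over genes of −0.014, 0.023 and 0.0040. Those of differently numbered libraries ran from −0.032 to 0.028. With 3 libraries in each group these values cannot settle whether the numbers pair sham with SNI libraries. The sex interaction called 2 genes with DESeq2, 110 without a filter and 0 to 1698 when 1 library was left out. The region interaction called 6, 672 and 0 to 2070. The block, which matched numbers within each sex or region only, left both at 0.
Among the 146 named genes tested, 2118 of 2324 values under alternatives kept their direction and side of the threshold, 18 lost a call, 176 gained one and 12 turned, all of them in leave-one-out fits of genes with no call. When 1 library was left out, the log2 fold change ran from −0.017 to 0.027 for Hnrnpa3, from −0.19 to 0.38 for Kdm5d, from −2.97 to 0.19 for Sostdc1, from −0.073 to 0.021 for Ube2v2 and from −0.032 to 0.065 for Xist, and the turn of Sostdc1 was that without sham 1. Of 238 list medians under alternatives, 22 moved by more than the spread and 21 had the opposite sign. Depth limits the rare genes most, as 3 counts were 0.0987 to 0.121 CPM.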
